A study of Mus musculus with 36 samples.

Results

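Neutrophil granule and calprotectin genes were followed across brain, heart, kidney and liver of mice in acute systemic inflammation. The set lists 7 genes, chosen by symbol, and each gene is read from its probe with the highest mean. Of these, S100a8, S100a9, Ltf and Retnlg each had 1 named probe, among 12394 genes with a named probe in all. No probe carried the symbols Ngp, Camp or Mmp8, and these 3 genes are not analysed here. S100a9 and Retnlg were measured in 4 tissues, S100a8 in brain, heart and liver, and Ltf in brain and heart.

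The arrays hold RNA from female FVB mice, 6 to 8 weeks old, that carry a luciferase transgene; its promoter was not named in the labels. LPS+genipin mice received 4 mg/kg of bacterial lipopolysaccharide (LPS) into the peritoneal cavity and genipin 10 min later, LPS mice received that dose of LPS alone, and mock mice were untreated. Genipin is an iridoid compound from gardenia fruit. Tissues were taken 4 h later, and each of the 12 groups of 1 tissue and 1 treatment has 3 arrays. The study describes genipin doses of 1, 10 and 100 mg/kg, and which of these the arrayed mice received is not stated in the labels. The labels do not state that the arrays of a group come from different mice, so p-values here measure the spread between those arrays, which may be technical.

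Neutrophils are short-lived white blood cells that leave the bone marrow with most of their granule proteins already made, circulate in blood and enter inflamed tissue. S100A8 and S100A9 pair to form calprotectin, which binds calcium, zinc and manganese and is the most familiar cytosolic protein of neutrophils, and both are also made by monocytes and, under stimulation, by other cells. Lactoferrin (Ltf) is an iron-binding protein of the secondary granules and is also secreted by glandular epithelium. Retnlg encodes resistin-like gamma, a secreted protein of mouse bone marrow and neutrophils. Ngp, Camp and Mmp8 encode neutrophilic granule protein, the cathelicidin precursor and neutrophil collagenase.

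In assembly GRCm38.p6, S100a8 lies on chromosome 3 from 90669071 to 90670034 and S100a9 on the same chromosome from 90692630 to 90695721, with 22595 bases between them and opposite strands. Ltf lies on chromosome 9 from 111019292 to 111042766 and Retnlg on chromosome 16 from 48872608 to 48874498. The 250 bases before the RefSeq start of each measured gene are given so that the 4 can be compared letter by letter; none of the expression values bears on a motif. They are written 5′ to 3′ on the gene's strand. Capitals mark matches on either strand to TTGCNNAA, the core bound by C/EBP factors of granulocyte development, and to GAGGAA, a core bound by PU.1.
S100a8, chr3:90668821-90669070, plus strand: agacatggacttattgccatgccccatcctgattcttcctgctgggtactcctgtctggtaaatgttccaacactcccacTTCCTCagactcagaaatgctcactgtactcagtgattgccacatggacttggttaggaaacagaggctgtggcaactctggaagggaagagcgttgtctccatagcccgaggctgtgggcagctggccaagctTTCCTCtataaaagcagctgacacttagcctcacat
S100a9, chr3:90695722-90695971, minus strand: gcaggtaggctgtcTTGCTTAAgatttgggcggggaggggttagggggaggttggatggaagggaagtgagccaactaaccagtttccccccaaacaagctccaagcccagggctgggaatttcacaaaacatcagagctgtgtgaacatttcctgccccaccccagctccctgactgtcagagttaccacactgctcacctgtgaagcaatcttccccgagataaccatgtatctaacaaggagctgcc
Ltf, chr9:111019042-111019291, plus strand: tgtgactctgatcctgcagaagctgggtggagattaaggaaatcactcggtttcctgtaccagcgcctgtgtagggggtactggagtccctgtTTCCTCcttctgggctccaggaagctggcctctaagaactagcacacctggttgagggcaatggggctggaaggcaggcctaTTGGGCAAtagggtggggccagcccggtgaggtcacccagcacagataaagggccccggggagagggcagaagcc
Retnlg, chr16:48872358-48872607, plus strand: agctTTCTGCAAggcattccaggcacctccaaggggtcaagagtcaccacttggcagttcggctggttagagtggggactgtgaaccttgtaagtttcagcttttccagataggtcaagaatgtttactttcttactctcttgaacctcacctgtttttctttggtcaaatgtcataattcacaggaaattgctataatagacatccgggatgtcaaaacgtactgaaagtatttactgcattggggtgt

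TTGCNNAA was found once each in the promoters of S100a9, Ltf and Retnlg and not in that of S100a8, against 9.56% of 32851 promoters of the same length. GAGGAA was found at 2 places in the S100a8 promoter and at 1 in the Ltf promoter, against 23.25% of all promoters. The AP-1 motif TGANTCA was in none of them, against 6.75% of all. No marked matches overlapped. A match describes letters only, and binding was not measured.

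All values below are intensities as deposited, normalised by the authors within each tissue, so levels are compared between treatments of a tissue and never between tissues or genes. Differences are on the log2 scale after raising intensities to a floor of 263, given ± SE from limma over 3 arrays per group, with p-values adjusted over every gene measured there. The median intensity of an array was 1252 to 1253 in liver, 1463 to 1464 in heart, 1811 to 1812 in kidney and 2096 to 2098 in brain. Markers of neurons in brain, cardiomyocytes in heart, proximal tubule in kidney and hepatocytes in liver were bright on all arrays. Some groups of brain, heart and kidney stood apart in markers of neighbouring tissue, and those of heart and kidney are given beside their results. The 4 measured skeletal muscle markers in brain had a mean log2 level of 9.33 to 9.42 in the LPS+genipin group, 9.24 to 9.37 in the LPS group and 14.39 to 14.44 in mock. Choroid plexus markers had mean log2 levels of 11.60 to 11.73, 9.45 to 9.55 and 10.72 to 10.75 in the same groups. The log2 of their summed intensities, in which bright genes weigh most, was 16.09 to 16.10, 11.90 to 12.22 and 16.02 to 16.04. Against mock, 3 of 4 rose and 0 fell with LPS+genipin, and 0 rose and 2 fell with LPS alone. Their part in the brain results was not tested.

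LPS raised calprotectin transcripts in every tissue in which they were measured, more than 16-fold in heart, kidney and liver and 2.41- to 2.68-fold in brain. S100a8 was at 15581, 15702 and 14996 in the LPS hearts, against 914, 976 and 959 in the mock hearts. In liver it was at 43031, 46601 and 45350 in the LPS livers, against 1562, 1973 and 1516 in the mock livers. The LPS arrays lay far above the mock arrays in both organs, and no LPS array reached 60000, the limit set here for saturation. S100a8 rose 16.2-fold in heart (4.02 ± 0.06, adjusted p = 2.22e-09) and 26.9-fold in liver (4.75 ± 0.10, adjusted p = 1.06e-08).

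S100a9, the partner subunit, was at 16646, 14982 and 13027 in the LPS hearts, against 899, 824 and 968 in the mock hearts. In liver it was at 43166, 39450 and 35559 in the LPS livers, against 2036, 1883 and 2177 in the mock livers. In kidney it was at 6293, 4372 and 6317 in the LPS kidneys, against 363, 248 and 345 in the mock kidneys. No LPS array overlapped a mock array, and 1 of the mock kidneys lay under the floor, so the kidney difference is slightly understated. S100a9 rose 16.5-fold in heart (4.05 ± 0.15, adjusted p = 2.32e-07), 17.4-fold in kidney (4.12 ± 0.17, adjusted p = 3.75e-07) and 19.4-fold in liver (4.27 ± 0.12, adjusted p = 4.64e-08). In whole-tissue RNA, more cells of a type and more RNA per cell cannot be told apart.

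In brain the same transcripts rose by less. S100a8 was at 1784, 1688 and 2079 in the LPS brains, against 682, 722 and 657 in the mock brains. S100a9 was at 1440, 1272 and 1379 in the LPS brains, against 538, 581 and 575 in the mock brains. The groups stood apart without overlap for both genes, with differences of 1.42 ± 0.09 for S100a8 (adjusted p = 3.02e-05) and 1.27 ± 0.08 for S100a9 (adjusted p = 1.94e-05).

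**Figure D1:**
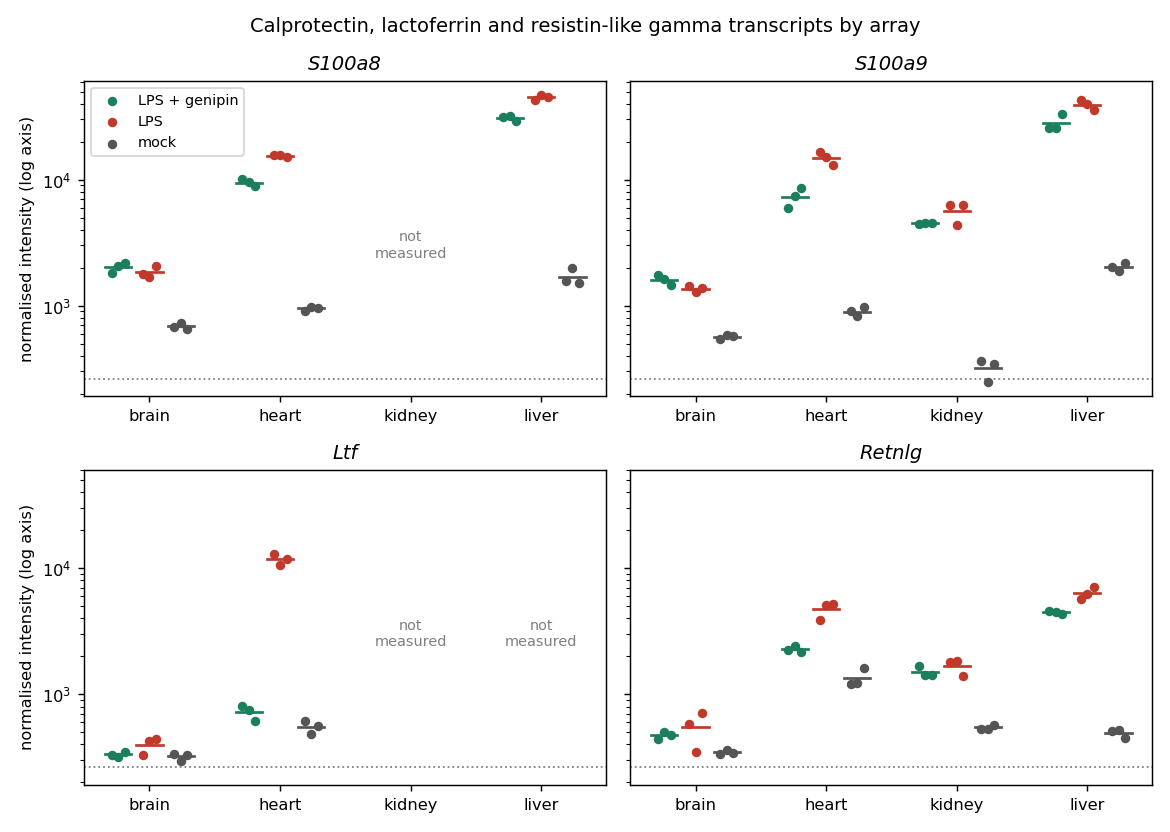
Normalised intensity on a log axis for each array, in 1 panel per gene, with LPS+genipin, LPS and mock arrays side by side in each tissue. Points are arrays, short lines are means of 3 arrays, and the dotted line is the floor of 263; S100a8 and S100a9 of the LPS arrays lie above mock in each tissue shown, and Ltf of the heart is high in the 3 LPS arrays alone.

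Retnlg rose with LPS in the 3 peripheral organs. It was at 5694, 6219 and 7057 in the LPS livers, against 514, 517 and 448 in the mock livers. In heart it was at 3902, 5066 and 5160 in the LPS hearts, against 1207, 1231 and 1613 in the mock hearts. In kidney it was at 1817, 1840 and 1402 in the LPS kidneys, against 532, 532 and 574 in the mock kidneys. All LPS arrays of these organs exceeded their mock arrays. Retnlg rose 12.8-fold in liver (3.68 ± 0.09, adjusted p = 2.24e-08), 3.49-fold in heart (1.80 ± 0.14, adjusted p = 2.52e-05) and 3.07-fold in kidney (1.62 ± 0.11, adjusted p = 8.98e-06).

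In brain Retnlg was dim, at 578, 346 and 714 in the LPS brains, against 334, 360 and 345 in the mock brains, and the lowest LPS array lay inside the mock range. Its difference of 0.59 ± 0.23 did not pass (adjusted p = 0.0803), and without that LPS array it was 0.89 ± 0.10, adjusted p = 0.00103. Resistin-like genes form a family of similar sequence, and cross-hybridisation of the probe was not tested.

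Ltf, the lactoferrin gene, rose in heart and did not pass in brain. It was at 12882, 10696 and 11868 in the LPS hearts, against 617, 484 and 560 in the mock hearts, a 21.4-fold rise (4.42 ± 0.13, adjusted p = 8.25e-08). Adipoq and Cfd of fat and Myl7 of atrial muscle, given below, were also high in the LPS hearts alone. Their part in the heart rises of the members was not tested. In brain Ltf was at 332, 423 and 444 in the LPS brains, against 338, 296 and 332 in the mock brains. The brain groups overlapped near the floor, and the difference of 0.30 ± 0.11 did not pass (adjusted p = 0.0715), although without the lowest LPS array it was 0.43 ± 0.07, adjusted p = 0.00557.

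With LPS, 3 of 3 measured members thus rose in liver, 4 of 4 in heart, 2 of 2 in kidney and 2 of 4 in brain. Among all measured genes 29.3% rose in liver, 18.2% in heart, 25.3% in kidney and 16.4% in brain. The same members were those whose LPS and mock arrays did not overlap, which held for 70.2% of all genes in liver, 54.1% in heart, 69.2% in kidney and 47.8% in brain. The median log2 difference of the measured members was 4.27 in liver, 4.04 in heart, 2.87 in kidney and 0.93 in brain, against −0.03, −0.06, −0.09 and −0.00 over all genes.

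Some platelet transcripts rose with LPS beside the members. Pf4 rose in liver (2.34 ± 0.08), heart (1.46 ± 0.07), kidney (1.10 ± 0.06) and brain (0.80 ± 0.07). Of the platelet list 4 of 4 rose and 0 fell in liver, 1 of 4 rose and 1 fell in heart, 1 of 1 rose and 0 fell in kidney and 1 of 2 rose and 0 fell in brain. Its log2 summed intensity in liver was 12.36 to 12.51 with LPS and 10.64 to 10.78 in mock. In heart the sum, led by Pf4, was 15.09 to 15.15 with LPS and 13.75 to 13.96 in mock. The mean log2 level of the list overlapped there, at 10.33 to 10.55 with LPS and 10.12 to 10.46 in mock. In kidney, where Pf4 alone was measured, the log2 summed intensity was 11.13 to 11.19 with LPS and 10.00 to 10.11 in mock. In brain it was 11.46 to 11.62 with LPS and 11.02 to 11.09 in mock. Of the red blood cell list 1 of 2 rose and 0 fell in liver, 1 of 3 rose and 1 fell in heart, 0 of 2 rose and 2 fell in kidney and 0 of 2 rose and 0 fell in brain. Their part in the rise of the members was not tested.

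With genipin after LPS, the members were lower in heart and liver than with LPS alone. S100a8 was at 10018, 9552 and 8827 in the LPS+genipin hearts, against 15581, 15702 and 14996 in the LPS hearts. S100a9 was at 5920, 7447 and 8574 in the LPS+genipin hearts, against 16646, 14982 and 13027 in the LPS hearts. Every LPS+genipin heart lay below every LPS heart for both calprotectin genes, which fell 1.63-fold (−0.71 ± 0.06, adjusted p = 6.47e-05) and 2.05-fold (−1.03 ± 0.15, adjusted p = 0.000858). Retnlg was at 2236, 2408 and 2168 in the LPS+genipin hearts, against 3902, 5066 and 5160 in the LPS hearts, and fell 2.06-fold (−1.04 ± 0.14, adjusted p = 0.000724).

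Ltf had the largest fall of the 4 members in heart. It was at 809, 744 and 611 in the LPS+genipin hearts, against 12882, 10696 and 11868 in the LPS hearts, which is 16.4-fold lower (−4.04 ± 0.13, adjusted p = 3.87e-07). Against mock, Ltf of the LPS+genipin hearts differed by 0.38 ± 0.13 (adjusted p = 0.0801), and 1 of the 3 arrays lay inside the mock range; without that array the difference was 0.49 ± 0.12, adjusted p = 0.0388. S100a8 of the same LPS+genipin hearts was 9.96-fold above mock (3.32 ± 0.06, adjusted p = 3.02e-08). S100a9 was 8.08-fold above (3.01 ± 0.15, adjusted p = 6.72e-06) and Retnlg 1.70-fold above (0.76 ± 0.14, adjusted p = 0.00827).

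Transcripts of fat and of atrial muscle were also high in the LPS hearts and low in the LPS+genipin hearts. Adipoq, the fat hormone adiponectin, was at 665, 666 and 657 in the LPS+genipin hearts, against 20342, 20849 and 20146 in the LPS hearts. Cfd, the complement factor adipsin made by fat cells, was at 1007, 1017 and 1118 in the LPS+genipin hearts, against 51920, 58790 and 51245 in the LPS hearts. Mock hearts had 742, 695 and 536 for Adipoq and 1071, 1074 and 1150 for Cfd. Of the fat markers 2 of 3 measured rose with LPS, and 2 of 3 fell with genipin. Their log2 summed intensity was 14.07 to 14.60 in the LPS+genipin hearts, 16.39 to 16.57 in the LPS hearts and 13.62 to 14.12 in the mock hearts. The atrial light chain gene Myl7 was saturated on all LPS hearts and at least 91.6-fold lower with genipin. Haptoglobin (Hp), an acute-phase protein, stood 7.72 ± 0.10 above mock with LPS and differed by −4.60 ± 0.10 between LPS+genipin and LPS. The part of fat or atrial tissue in the heart differences was not tested. LPS hearts enter the comparison of LPS+genipin with mock through its SE and p-values, and not through the means compared.

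**Figure D2:**
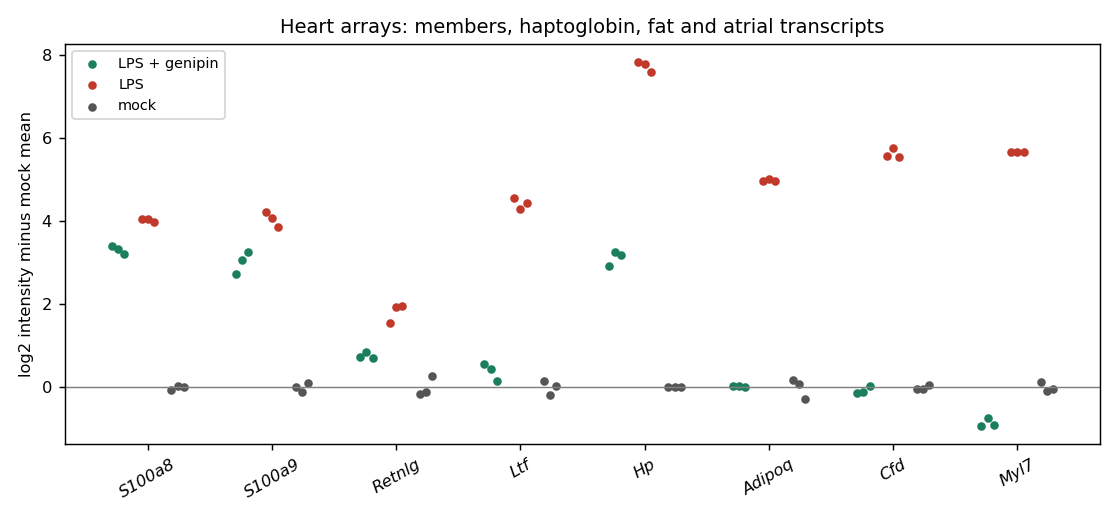
Log2 intensity minus the mock mean for each of the 9 heart arrays, for the 4 measured members, haptoglobin, the fat transcripts Adipoq and Cfd and the atrial transcript Myl7. Points are arrays; Ltf, Adipoq and Cfd of the LPS+genipin hearts lie near the mock hearts, while S100a8 and S100a9 lie near 3.

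In liver the 3 measured members fell together with genipin. S100a8 was at 31563, 31898 and 28910 in the LPS+genipin livers, against 43031, 46601 and 45350 in the LPS livers. S100a9 was at 25649, 25716 and 33252 in the LPS+genipin livers, against 43166, 39450 and 35559 in the LPS livers. Retnlg was at 4564, 4489 and 4331 in the LPS+genipin livers, against 5694, 6219 and 7057 in the LPS livers. The groups did not overlap for any of the 3. The falls were 1.46-fold for S100a8 (−0.55 ± 0.10, adjusted p = 0.00274), 1.40-fold for S100a9 (−0.49 ± 0.12, adjusted p = 0.0102) and 1.41-fold for Retnlg (−0.50 ± 0.09, adjusted p = 0.00235). All 3 stayed above mock in the LPS+genipin livers, S100a8 18.4-fold (4.20 ± 0.10, adjusted p = 3.99e-08), S100a9 13.8-fold (3.79 ± 0.12, adjusted p = 1.62e-07) and Retnlg 9.07-fold (3.18 ± 0.09, adjusted p = 8.98e-08).

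In kidney no member passed with genipin. S100a9 was at 4481, 4493 and 4504 in the LPS+genipin kidneys, against 6293, 4372 and 6317 in the LPS kidneys. Retnlg was at 1686, 1430 and 1429 in the LPS+genipin kidneys, against 1817, 1840 and 1402 in the LPS kidneys. For each gene 1 LPS kidney, a different one, lay below the LPS+genipin kidneys. The difference was −0.31 ± 0.17 for S100a9 (95% interval −0.70 to 0.07, adjusted p = 0.146) and −0.15 ± 0.11 for Retnlg (95% interval −0.41 to 0.12, adjusted p = 0.307). Without that LPS kidney S100a9 was at −0.49 ± 0.13, adjusted p = 0.0191, and Retnlg at −0.28 ± 0.08, adjusted p = 0.0300. Against mock, the LPS+genipin kidneys were higher by 3.81 ± 0.17 for S100a9 (adjusted p = 1.25e-06) and by 1.47 ± 0.11 for Retnlg (adjusted p = 3.45e-05). Markers of muscle and fat stood apart in the LPS+genipin kidneys. The muscle light chain gene Mylpf was at 2677, 2839 and 2853 in the LPS+genipin kidneys, against 442, 442 and 418 in the LPS kidneys, with 509, 559 and 557 in the mock kidneys. With genipin after LPS, 2 of 2 rose and 0 fell among skeletal muscle markers and 3 of 4 rose and 0 fell among fat markers. The log2 summed intensity of the muscle markers was 11.85 to 11.92 in the LPS+genipin kidneys, 9.88 to 10.03 in the LPS kidneys and 9.55 to 9.82 in the mock kidneys. That of the fat markers was 15.80 to 15.97, 15.25 to 15.39 and 14.90 to 14.97 in the same groups. Their part in the kidney results was not tested.

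In brain no member passed with genipin either. S100a8 was at 1827, 2050 and 2174 in the LPS+genipin brains, against 1784, 1688 and 2079 in the LPS brains. S100a9 was at 1734, 1622 and 1448 in the LPS+genipin brains, against 1440, 1272 and 1379 in the LPS brains. The S100a8 groups overlapped, with a difference of 0.13 ± 0.09 (95% interval −0.09 to 0.34, adjusted p = 0.348). The S100a9 groups did not, with the LPS+genipin arrays above, at 0.23 ± 0.08 (95% interval 0.05 to 0.41, before adjustment, adjusted p = 0.0589), and without the third LPS+genipin brain it was 0.30 ± 0.07, adjusted p = 0.0231.

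Ltf in brain was at 328, 320 and 351 in the LPS+genipin brains, against 332, 423 and 444 in the LPS brains, a difference of −0.25 ± 0.11 (95% interval −0.51 to 0.01, adjusted p = 0.127). Retnlg was at 445, 504 and 478 in the LPS+genipin brains, against 578, 346 and 714 in the LPS brains, a difference of −0.14 ± 0.23 (95% interval −0.67 to 0.39, adjusted p = 0.688). Both overlapped, and single LPS arrays decided the calls. Leaving out the first LPS brain gave −0.38 ± 0.07, adjusted p = 0.0102 for Ltf, and leaving out the second gave −0.44 ± 0.10, adjusted p = 0.0168 for Retnlg. Against mock, the LPS+genipin brains were 2.93-fold higher for S100a8 (1.55 ± 0.09, adjusted p = 2.98e-05) and 2.83-fold higher for S100a9 (adjusted p = 1.44e-05). Ltf at 0.05 ± 0.11, adjusted p = 0.830 and Retnlg at 0.46 ± 0.23, adjusted p = 0.238 did not pass against mock. The LPS+genipin and mock arrays of Retnlg did not overlap, and it passed in a fit of those 6 arrays (adjusted p = 0.00579) and without the second LPS brain (adjusted p = 0.0149).

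With genipin after LPS, 4 of 4 measured members thus fell in heart, 3 of 3 in liver, 0 of 2 in kidney and 0 of 4 in brain by limma. At an unadjusted p under 0.05, 0 differed in kidney and 1 in brain, S100a9. Among all measured genes 19.9% fell in heart, 24.7% in liver, 22.7% in kidney and 13.8% in brain. The 2 groups had no overlapping arrays for 4 members in heart, 3 in liver, 0 in kidney and 1 in brain, against 52.6%, 60.3%, 61.9% and 39.1% of all genes. Above mock, LPS+genipin tissues had 3 of 4 members in heart, 3 of 3 in liver, 2 of 2 in kidney and 2 of 4 in brain, against 7.47%, 28.2%, 20.1% and 8.86% of all genes. The 3 comparisons share arrays and are given side by side.

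**Figure D3:**
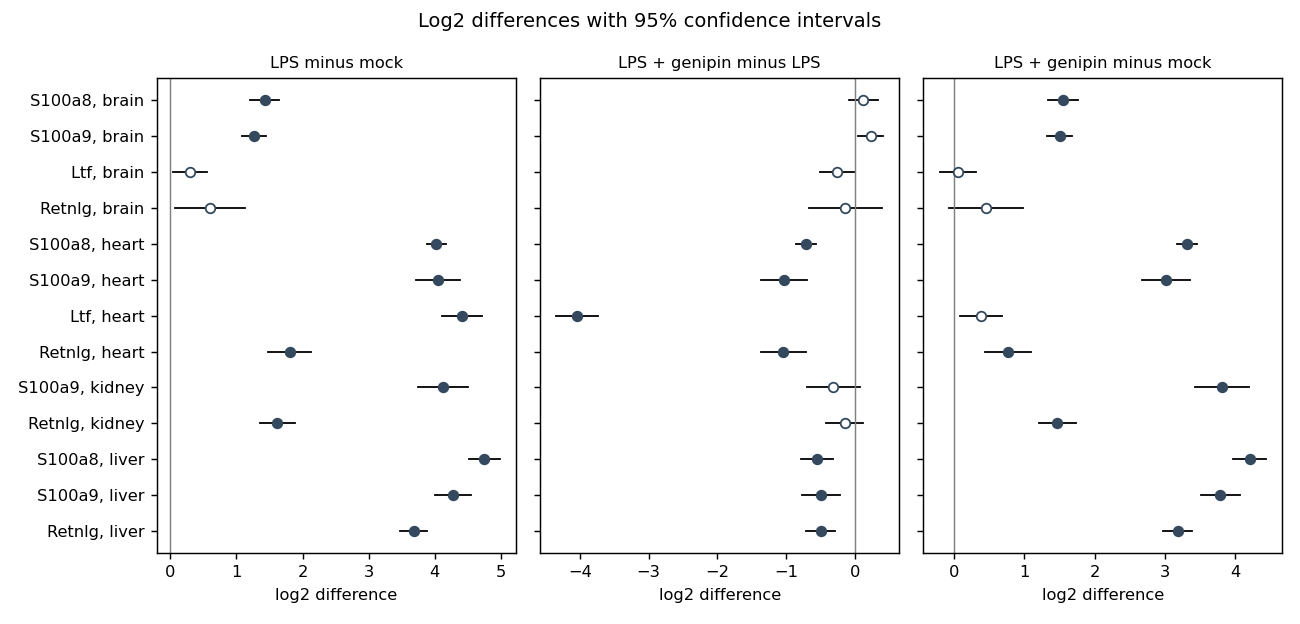
Log2 difference (x axis) of each measured member in each tissue for LPS minus mock, LPS+genipin minus LPS and LPS+genipin minus mock, with 95% confidence intervals from limma as bars. Filled points passed an adjusted p of 0.05 and open points did not; the middle panel shows falls in heart and liver, with Ltf in heart at −4.04.

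In the genipin comparison blood cell transcripts fell in liver, and some of them fell in heart, kidney and brain. In liver, all 4 measured platelet markers fell, with differences of −0.96 ± 0.14 for Itga2b, −0.74 ± 0.08 for the platelet chemokine gene Pf4, −0.43 ± 0.13 for Gp1ba and −0.20 ± 0.07 for Ppbp. Both measured red blood cell markers fell there too, at −1.25 ± 0.16 for the anion exchanger gene Slc4a1 and −0.67 ± 0.21 for Alas2 of haem synthesis. The log2 summed intensity of the red cell markers was 11.01 to 11.13 in the LPS+genipin livers, 11.58 to 12.05 in the LPS livers and 11.68 to 11.85 in the mock livers. In heart, Alas2 and Pf4 fell, at −1.51 ± 0.08 and −1.40 ± 0.07, as did Slc4a1 (adjusted p = 0.000539), while Rhd, Ppbp and Gp1ba rose. In kidney, where no member passed, Alas2 fell (−0.59 ± 0.05), and Slc4a1 and Pf4 did not pass (−0.12 ± 0.07 and −0.13 ± 0.06). In brain, where no member passed either, Pf4 and Slc4a1 fell (−0.49 ± 0.07 and −0.41 ± 0.11), and Alas2 and the platelet gene Gp1bb did not pass (−0.16 ± 0.12 and −0.48 ± 0.35). Their part in the falls of the members was not tested.

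**Figure D4:**
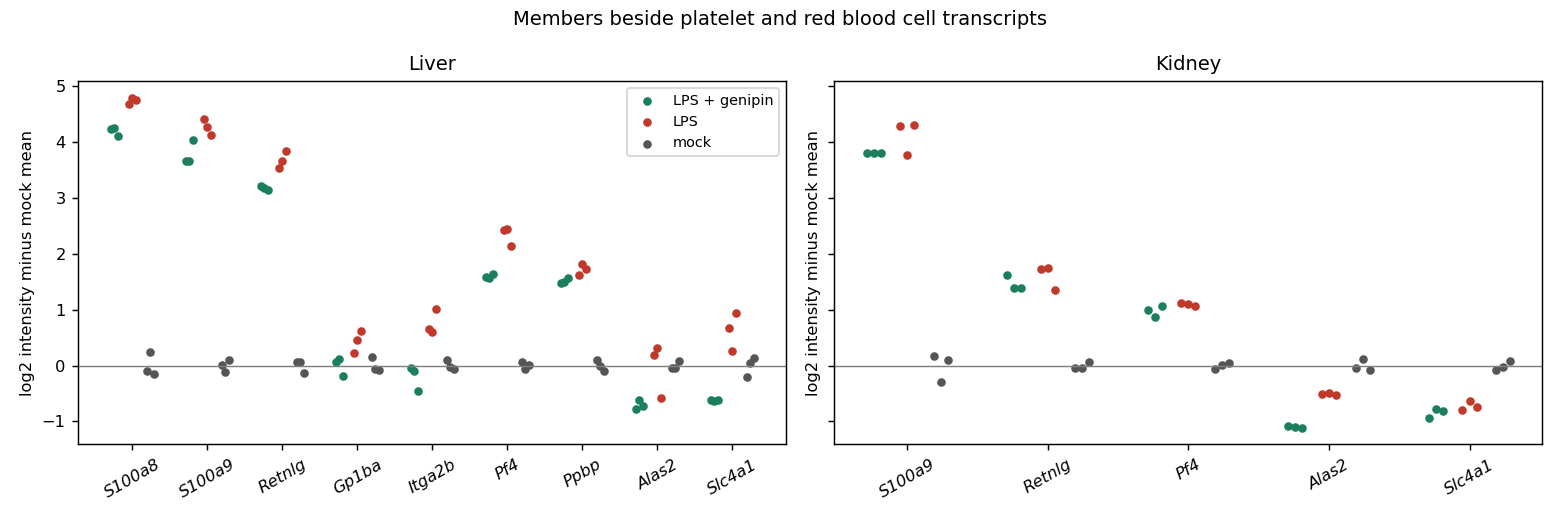
Log2 intensity minus the mock mean for each array of liver (left) and kidney (right), for the members and for platelet (Gp1ba, Itga2b, Pf4, Ppbp) and red blood cell (Alas2, Slc4a1) transcripts. Points are arrays; in liver the LPS+genipin arrays lie below the LPS arrays for the members and for each blood transcript shown.

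Other neutrophil genes mostly rose with LPS in heart, kidney and liver. The list holds 42 other granule, oxidase and surface genes. With LPS, 11 of 14 rose and 2 fell in heart (median 1.02), 10 of 13 rose and 0 fell in kidney (median 0.68), 10 of 17 rose and 1 fell in liver (median 1.18), and 5 of 13 rose and 2 fell in brain (median 0.28). The shares of all genes that rose were 18.2%, 25.3%, 29.3% and 16.4% in the same order. Lcn2, a siderophore-binding protein of secondary granules that epithelium and liver also make, had the highest difference in brain (7.53 ± 0.08) and kidney, where it was at least 161-fold higher. Hp, the acute-phase gene given above beside the fat transcripts, was highest in heart. Fpr2, a chemotactic receptor, was highest in liver (3.83 ± 0.06). The lowest were Csf3r, the receptor for granulocyte growth factor, in brain (−0.62 ± 0.07), the lysozyme gene Lyz2 in heart and liver (−1.05 ± 0.07 and −0.74 ± 0.12), and Cyba in kidney, which did not pass (0.07 ± 0.09). With genipin after LPS, 2 of 14 genes of this list rose and 6 fell in heart (median −0.27). In kidney 4 of 13 rose and 6 fell (median −0.23), and in brain 3 of 13 rose and 4 fell (median 0.04). In liver, where the 3 measured members fell, 3 of 17 rose and 2 fell (median −0.00). Among all genes 19.9% fell in heart, 22.7% in kidney, 13.8% in brain and 24.7% in liver. The share that rose with genipin is not given here.

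With LPS, genes of the list measured in 4 tissues differed among themselves. The oxidase subunit gene Ncf4 rose in each, by 1.03 ± 0.13 in heart and 1.49 ± 0.13 in liver and at least 1.57-fold in brain and 2.16-fold in kidney. Anxa1, a phospholipid-binding protein abundant in neutrophils, rose in liver (1.44 ± 0.07), kidney (1.36 ± 0.09), heart (0.91 ± 0.06) and brain (0.50 ± 0.08). The integrin genes Itgam and Itgb2 rose in heart, kidney and liver and did not pass in brain. The lectin receptor gene Clec4e passed in no tissue, and the protease gene Prtn3 fell in heart. Of the 14 neutrophil markers, Ly6g, Cxcr2, Mpo, Elane and Cd177 gave no value in any tissue, and in brain Mmp9 stood at −0.24 ± 0.10, adjusted p = 0.105.

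Among neutrophil attractants, Cxcl1, a main neutrophil chemokine of mouse tissues, had the highest difference in heart, kidney and liver. It rose 172-fold in kidney (7.43 ± 0.07), and at least 118-fold in heart and 5.35-fold in liver, where the LPS arrays were saturated. Of the attractant and growth factor list 4 of 7 rose and 3 fell in heart, 3 of 5 rose and 2 fell in kidney, 3 of 5 rose and 1 fell in liver and 1 of 2 rose and 1 fell in brain. Cxcl12, which holds neutrophils in bone marrow, fell in brain (−2.57 ± 0.10), heart (−2.22 ± 0.13), kidney (−1.11 ± 0.06) and liver (−1.61 ± 0.08). Of the adhesion genes of neutrophil capture 5 of 9 rose and 2 fell in heart, 5 of 9 rose and 3 fell in kidney, 6 of 9 rose and 1 fell in liver and 3 of 7 rose and 2 fell in brain. The selectin ligand gene Selplg rose in heart, kidney and liver (0.80 ± 0.14, 1.37 ± 0.08 and 1.46 ± 0.07) and fell in brain (−0.51 ± 0.11).

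Other S100 genes moved in both directions. With LPS, 1 of 8 rose and 2 fell in heart, 2 of 7 rose and 2 fell in kidney, 3 of 6 rose and 3 fell in liver and 0 of 8 rose and 2 fell in brain, with medians of −0.02, 0.07, −0.09 and −0.12. The calcium-binding protein gene S100a6 rose in liver (1.97 ± 0.06), and S100a1, which is abundant in muscle, fell in heart, kidney and liver (−0.50 ± 0.06, −0.13 ± 0.05 and −0.51 ± 0.05). Of the receptors listed for calprotectin, 1 was measured in brain and 3 in each other organ, and those that passed with LPS were Ly96 in liver (0.57 ± 0.14), Tlr4 in kidney (0.53 ± 0.14) and Tlr4 in heart (−0.37 ± 0.12).

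The size of the LPS response was tested between tissues for each member, in the 18 arrays of each pair of tissues. Of 16 such differences 12 passed. Among all genes 41.5% passed for heart and brain, 49.1% for kidney and brain, 56.2% for liver and brain, 37.1% for kidney and heart, 44.4% for liver and heart and 50.6% for liver and kidney. The LPS response was smaller in brain than in each other tissue for every member measured in both. Mock brains stood apart in skeletal muscle markers, LPS brains in choroid plexus markers and LPS hearts in fat and atrial markers. The part of those markers in these differences was not tested. For S100a8 the heart response exceeded the brain response by 2.60 ± 0.12 (adjusted p = 3.27e-11). S100a9 gave no difference past the threshold among the other organs, at 0.07 ± 0.22 for kidney over heart, 0.23 ± 0.19 for liver over heart and 0.15 ± 0.21 for liver over kidney (adjusted p = 0.820, 0.365 and 0.572). Retnlg responded more in liver, by 1.87 ± 0.17 over heart (adjusted p = 3.23e-07) and 2.06 ± 0.15 over kidney (adjusted p = 1.32e-08).

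The genipin difference was tested in the same way, and 11 of 16 differences passed. The groups of brain, heart and kidney that stood apart in markers of neighbouring tissue enter these tests as well. The part of those markers was not tested. Among all genes 39.9% passed for heart and brain, 44.0% for kidney and brain, 45.7% for liver and brain, 42.2% for kidney and heart, 44.0% for liver and heart and 38.1% for liver and kidney. Ltf fell further in heart than in brain, by −3.79 ± 0.18 (adjusted p = 6.45e-11). The kidney minus heart difference of S100a9 was 0.72 ± 0.22 (adjusted p = 0.0175), and the liver minus heart difference was 0.55 ± 0.19 (adjusted p = 0.0327). Between liver and kidney S100a9 gave −0.18 ± 0.21 (adjusted p = 0.538), so its call in liver and not in kidney does not show that the tissues differ.

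Genes whose profile was most like calprotectin over the 9 arrays of a tissue were found by Pearson's r with the mean of S100a8 and S100a9, or with S100a9 alone in kidney. These values describe arrays in 3 groups and carry no test. In brain they were Lrg1, Alb, Pnpla2, Trp53inp1 and Il1r1 (r from 0.990 to 0.994). In heart they were Lilrb4a, Clec4d, Nfkbia, Socs3 and Ccl2 (r from 0.997 to 0.999). In kidney they were Plaur, Lcn2, Dusp1, Tnfaip3 and Upp2 (r from 0.995 to 0.997). In liver they were Tnfaip3, Fpr2, Marcksl1, P2ry2 and Cxcl1 (r from 0.999 to 1.00). Some of these profiles were cut off, so their r and rank rest in part on limit values. Nfkbia in heart, Lcn2 in kidney and Cxcl1 in liver were saturated on all 3 LPS arrays. Alb in brain and Ccl2 in heart were at the floor on all 3 mock arrays, as Plaur in kidney was on 1. Clec4d encodes a lectin receptor of myeloid cells, Plaur the urokinase receptor and Tnfaip3 an inhibitor of NF-kB signalling. Retnlg ranked 18 of 8595 genes in liver (r = 0.997), 115 of 9547 in kidney (0.975), 285 of 9646 in heart (0.896) and 850 of 10140 in brain (0.714). Ltf ranked 932 of 9646 in heart (0.719) and 2559 of 10140 in brain (0.386).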

How the data were processed

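Members and gene lists were chosen with earlier results of these data known. The deposited table holds intensities on a linear scale, normalised by the authors within each tissue, as the nearly equal sorted values of its 9 arrays show. RNA (5 µg) was labelled with Cy5 per the labels' protocols, and limma is named without version or role per the submitters' processing notes. The labels name no background correction or probe filter. The number of arrays limits the precision. Of 18183 probes 14817 carried 1 symbol, 0 several and 3366 none. Symbols were current in RefSeq (GRCm38.p6) for 12468, updated through a synonym for 2318 and kept for 31. Where a gene had several probes, the one with the highest mean among those measured in the tissue was used. Intensities below the 5th percentile of the table (263) were set to it before taking log2. A model with 1 mean per group was run on the 9 arrays of a tissue in limma 3.58.1 under R 4.3.3, two-sided, with Benjamini-Hochberg adjustment over 10224 brain, 9669 heart, 9614 kidney and 8641 liver genes and a threshold of 0.05. A group wholly at the floor, or wholly at or above 60000, gave a bound ("at least"). Tissue differences are interaction contrasts over genes measured in both tissues. All measured members are named. Of the listed genes, the highest and lowest of a list and those measured in 4 tissues could be named, with LPS values, and others named beyond that were chosen after their values were seen. Promoters come from RefSeq, with entries for 7 of 7 members. The limma step was tested on simulated data.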

Additional observations from a re-analysis of the deposited data

Results flagged for a closer look

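The responses of the members differed between tissues in 23 tests of the difference itself, each a limma interaction contrast with adjusted p under 0.05, out of 32 run. Values are log2 differences of responses, first tissue minus second, and no cause was tested. They include the groups of brain, heart and kidney that stood apart in markers of neighbouring tissue.

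For LPS against mock, heart minus brain was 2.60 for S100a8, 2.78 for S100a9, 4.12 for Ltf and 1.21 for Retnlg. Kidney minus brain was 2.85 for S100a9 and 1.02 for Retnlg, and liver minus brain was 3.33 for S100a8, 3.00 for S100a9 and 3.08 for Retnlg. Liver minus heart was 0.73 for S100a8 and 1.87 for Retnlg, and liver minus kidney was 2.06 for Retnlg.

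For LPS+genipin against LPS, heart minus brain was −0.83 for S100a8, −1.26 for S100a9, −3.79 for Ltf and −0.90 for Retnlg. Ltf of the LPS brains lay near the floor, so a fall as large as that in heart could not show there. Kidney minus brain was −0.54 for S100a9, and liver minus brain was −0.67 for S100a8 and −0.72 for S100a9. Kidney minus heart was 0.72 for S100a9 and 0.89 for Retnlg, and liver minus heart was 0.55 for S100a9 and 0.54 for Retnlg. S100a8 and S100a9 stood above 0 in brain and below 0 in heart, although neither brain value passed by itself.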

How the results depend on the processing

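Alternatives were no floor, a floor at the 10th percentile, the mean of all probes, leaving out genes at the floor throughout, repeated quantile normalization, trended robust moderation, array weights, a fit of the 6 arrays compared, a replicate block and leaving out each array. In heart and liver the count of members called, with LPS and with genipin after LPS, was the reported one under each of them. Trended robust moderation called 4 members in brain with LPS against mock, where 2 were reported. Leaving out 1 array moved the count with genipin after LPS between 0 and 1 in brain and between 0 and 1 in kidney. The fit of the 6 arrays compared passed Retnlg in brain with LPS+genipin against mock (adjusted p = 0.00579). With no floor, Retnlg passed in brain with LPS against mock (0.59, adjusted p = 0.0489). Array weights passed Retnlg in brain (0.64 with LPS and 0.50 with LPS+genipin, against mock) and Ltf in heart with LPS+genipin against mock (adjusted p = 0.0146). Leaving out 1 array turned the direction of values that were not called, Ltf in brain, LPS+genipin against mock (−0.0104 to 0.0864), and Retnlg in brain, LPS+genipin against LPS (−0.437 to 0.0868). Same-numbered arrays did not deviate together (r from −0.526 to 0.261, with 25 of 72 best matches on the same number), so the numbers were taken as names. The replicate block changed no call of a member, with 4 members called in heart for LPS against mock, and of the tissue differences it ended that of S100a9 with genipin, liver minus heart (0.55, adjusted p = 0.0647). The cause of these moves was not tested. Signals near the floor limit Ltf and Retnlg in brain.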

Other observations

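Most measured macrophage and microglia markers fell in brain with LPS. With LPS, 1 of 7 monocyte and macrophage markers rose there and 5 fell, and 5 of 5 microglia markers fell. The median differences of the 2 lists were −0.46 and −1.37, against −0.002 over all brain genes. Among all brain genes 16.4% rose, and the share that fell is not given here. Mock brains also stood apart in skeletal muscle markers, whose part was not tested. Cx3cr1 is on both lists and is counted in each. Of the monocyte and macrophage markers, 4 of 8 rose and 1 fell in heart, 4 of 6 rose and 1 fell in kidney and 4 of 9 rose and 4 fell in liver. The scavenger receptor gene Marco rose in liver (2.64 ± 0.05), while the mannose receptor gene Mrc1 fell there (−1.50 ± 0.05). With genipin after LPS, 4 of 7 rose and 0 fell in brain, 2 of 8 rose and 3 fell in heart, 3 of 6 rose and 2 fell in kidney and 3 of 9 rose and 2 fell in liver.

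Among the 3 genes with no named probe, the promoter of Ngp held TTGCNNAA at 2 places and that of Mmp8 at 1, so that 5 of the 7 listed genes held it. The promoter of Camp held none of the 3 motifs searched. No expression value bears on these 3 genes here.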
